A study of Mus musculus with 10 samples.

Results

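Innate lymphoid cells (ILCs) of the mouse epidermis were compared with ILCs of the dermis that had been sorted as positive for Sca1, a surface protein encoded by Ly6a. The comparison rests on the sample titles and takes 5 of the 10 RNA libraries of the series. The epidermal group has 3 libraries and the dermal Sca1+ group has 2. Every library came from skin of adult mice of the B6 strain, and no treatment or engineered allele is named in the labels. The sources used here do not give the age in weeks, the sex, the gates that define an ILC or the number of animals behind a library. The other 5 libraries (2 dermal CCR6+ and 3 subcutaneous) also entered the fit, where they bear on which genes were tested, the normalisation, the spread and the adjustment of p. The levels in the dermal CCR6+ libraries are set beside some results.

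ILCs are tissue lymphocytes without rearranged antigen receptors. Type 2 ILCs depend on the transcription factor GATA3, respond to epithelial alarmins such as IL-33 and secrete IL-5 and IL-13. Type 3 ILCs make IL-17A, IL-22 and lymphotoxins. In skin, ILCs lie in the epidermis, near hair follicles and sebaceous glands, and in the dermis among fibroblasts, vessels, mast cells and macrophages.

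The deposited expected counts of a library summed to between 11627222 and 18118544. At least 1 count was found for 16014 to 16769 genes. Mitochondrial genes took between 2.19% and 4.9% of the counts. Over all genes (not independent replicates), Spearman's rho was 0.941 to 0.955 for pairs of epidermal libraries and 0.927 for the dermal Sca1+ pair. For pairs with 1 library of each group it was 0.824 to 0.854. Levels are given as deposited TPM (abundance corrected for gene length and library size), per library in the order of replicates 1, 2 and 3. Differences are log2 fold changes, epidermal minus dermal Sca1+, with the SE from the edgeR fit. Where nothing else is said, a gene is called higher or lower in epidermal ILCs when its adjusted p in edgeR's quasi-likelihood test is under 0.05. The labels do not say whether the libraries came from separate animals, so the p-values measure only how these libraries vary, which could be technical variation.

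The libraries carried the leukocyte and ILC genes that the labels lead one to look for. Ptprc, the gene of the pan-leukocyte protein CD45, was at 455.7, 238.8 and 197.9 TPM in epidermal ILCs and at 305.4 and 308.3 in dermal Sca1+ ILCs. Il7r, which encodes the IL-7 receptor α chain, was at 240.2, 186.9 and 198.2 TPM against 209.0 and 247.4. Id2, a transcriptional regulator needed for ILC development, was at 1630 to 2059 TPM against 2586 and 2321. Thy1, a surface protein gene of ILCs and T cells, was at 130.2 to 198.1 TPM against 120.3 and 100.6. None of these 4 genes was called (edgeR adjusted p of 0.0959 to 1.0). Among 24 tested genes of the T cell receptor and of T cells, Cd8a had no count in the 5 libraries and Cd4 reached at most 4.02 TPM. Cd3e was at 12.34 to 13.44 TPM in epidermal and at 25.33 and 9.40 in dermal Sca1+ libraries, Cd3g at 447.5 to 521.0 against 307.0 and 203.0, and Trbc2 at 748.4 to 815.0 against 647.4 and 704.8.

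Markers of other skin cells were present and differed between the groups. In the epidermal libraries, 12 of 20 keratinocyte markers were called higher and none lower, among them Krt10, a keratin of differentiated epidermis (693.0, 721.7 and 657.1 against 34.84 and 40.58 TPM), and Krtdap (2620, 14436 and 14044 against 382.4 and 454.8 TPM). The call of Krtdap was lost without dermal Sca1+ replicate 1 (edgeR adjusted p = 0.0527). The 8 keratinocyte markers not called were Krt5, Krt14, Krt15, Dsg3, Dsp, Trp63, Perp and Sfn. The summed TPM of the keratinocyte list was 6167 in epidermal replicate 1, 22668 in replicate 2 and 22382 in replicate 3, against 2445 and 2360 in the dermal Sca1+ libraries. The count of 12 became 7 without epidermal replicate 2, 5 without dermal Sca1+ replicate 1 and 7 without dermal Sca1+ replicate 2. In the other direction, 13 of 15 fibroblast markers, 12 of 13 endothelial, 9 of 10 pericyte and smooth muscle, 16 of 19 macrophage and dendritic cell, and 7 of 10 mast cell and basophil markers were called lower in epidermal ILCs. Summed levels were 261.4 to 413.8 TPM against 1748 and 2663 for fibroblasts, 2.55 to 8.49 against 440.6 and 426.5 for endothelium, and 5.59 to 11.65 against 652.3 and 1139 for macrophages and dendritic cells. For mast cells and basophils they were 47.33 to 116.1 against 511.3 and 685.7 TPM. Most of the epidermal mast cell sum was Kit, with a mean of 73.7 TPM against 59.47. Kit is also on the list of type 3 ILC genes and was not called. Of the fibroblast list, Gsn and Col5a1 were not called. In log2 of CPM + 1, Gsn differed by -0.100 between epidermal replicate 2 and dermal Sca1+ replicate 1. Between epidermal replicate 3 and dermal Sca1+ replicate 2 it differed by -0.403. Col3a1 and Col1a2, at epidermal means of 0.03 and 0.25 TPM, added little to the epidermal fibroblast sum.

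Several defining markers were listed at 0 in every epidermal library. This held for 6 of 13 endothelial, 6 of 19 macrophage and dendritic cell, 5 of 10 mast cell and 2 of 15 fibroblast markers. The endothelial gene Plvap had 0 counts in epidermal and 6454 in dermal Sca1+ libraries, at least 4165-fold lower when the 0 is set to a floor of 3 counts for the group. Col3a1, a fibroblast collagen, had 7 against 25372 counts. Dermal CCR6+ libraries also carried these markers, with summed levels of 1619 and 981.3 TPM for fibroblasts, 314.7 and 144.2 for endothelium, 569.3 and 260.6 for macrophages and dendritic cells, and 107.6 and 120.8 for mast cells. Kit was at 44.27 and 81.64 TPM within the last 2 sums. The part that other cells had in each result below was not tested. In bulk libraries, fewer cells of a type and less RNA per cell cannot be told apart.

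**Figure D1:**
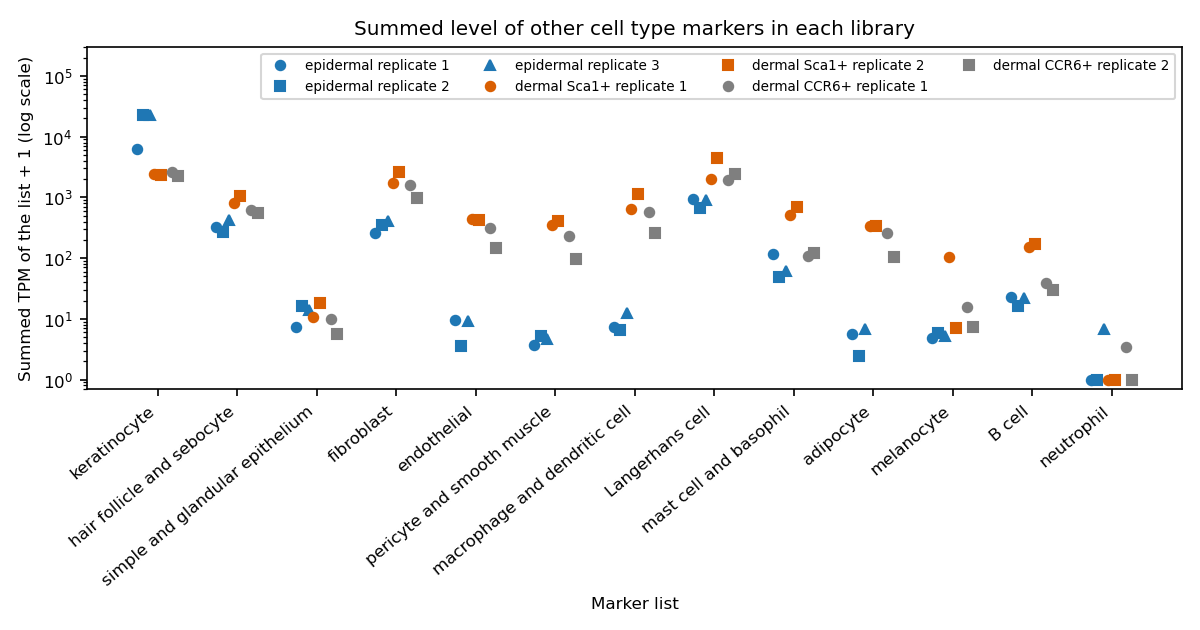
Summed TPM + 1 (log scale) of the markers of 13 other cell types in each epidermal, dermal Sca1+ and dermal CCR6+ library; each point is 1 library. Keratinocyte sums were 6167 to 22668 in the epidermal libraries, while the endothelial sums there were 2.55 to 8.49 against 440.6 and 426.5 in the dermal Sca1+ libraries.

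Of 16208 genes tested, 1848 were called (11.4%). Of these, 445 were higher in epidermal ILCs (2.75% of the genes tested) and 1403 were lower (8.66%), and the median log2 fold change over all genes tested was 0. These shares are the background for the counts of each gene list. The libraries of the groups did not overlap in level in 1842 of the called genes, where 40.9% of the genes tested showed no overlap. In 330 genes called lower, the epidermal libraries had no count at all. The share of calls that were higher in epidermal ILCs was 24.1%, and it was 39.1% with limma on log2(TPM + 1) and 35.8% with DESeq2. Leaving out dermal Sca1+ replicate 1 or 2 lowered the number of calls to 1199 or 1192. The genes higher in epidermal ILCs numbered 243 without epidermal replicate 3, 247 without dermal Sca1+ replicate 1 and 261 without replicate 2. Those lower numbered 931 without dermal Sca1+ replicate 2.

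**Figure D2:**
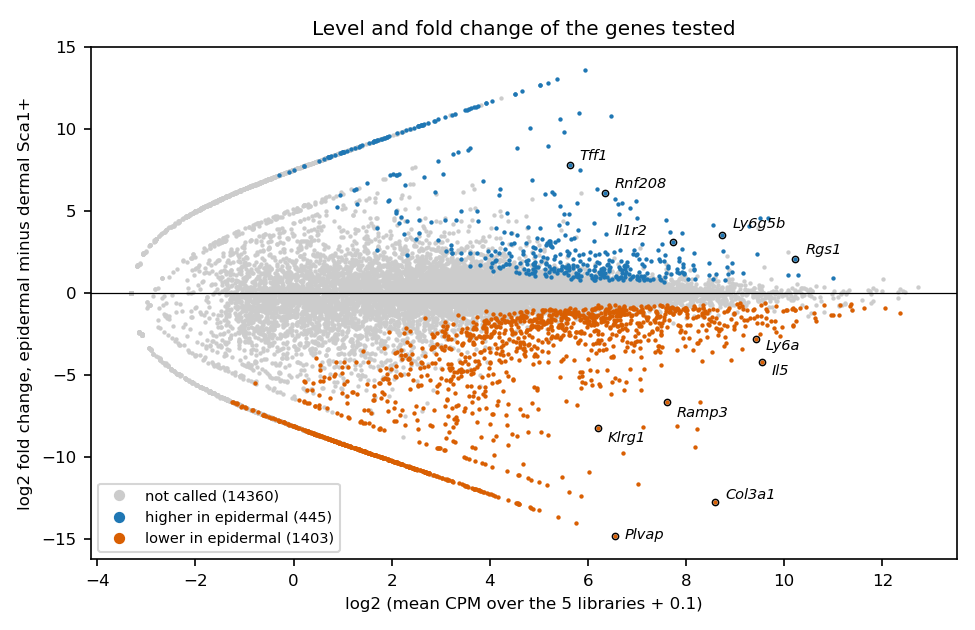
Mean level over the 5 libraries (log2 of CPM + 0.1) against the log2 fold change of each gene tested, with 445 genes higher and 1403 lower in epidermal ILCs in colour. The curved edges are genes without a count in 1 group, whose fitted fold change is no measurement of size.

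Among the genes higher in epidermal ILCs with no link to the marker lists, Susd2, which encodes a surface protein with a sushi domain, was at 526.7, 381.0 and 406.9 TPM against 84.46 and 70.53. Its log2 fold change was 2.38 ± 0.20 (SE, edgeR adjusted p = 5.33e-05). Ly6g5b, a gene of the Ly6 superfamily, was at 951.6, 1152 and 1086 TPM against 86.71 and 85.75 (3.56 ± 0.36, edgeR adjusted p = 0.000167). Tmem154, which encodes a transmembrane protein, was at 88.7 to 121.5 TPM against 16.61 and 15.20 (2.65 ± 0.22, edgeR adjusted p = 5.29e-05). Every epidermal library lay above both dermal Sca1+ libraries in these 3 genes, and the calls held without any 1 of the 5 libraries. The dermal CCR6+ libraries were also above the dermal Sca1+ libraries, at 309.1 and 319.5 TPM for Susd2 and at 558.4 and 504.2 for Ly6g5b.

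Other genes reached nearly 0 in the dermal Sca1+ libraries. Tff1, a trefoil peptide gene, was at 598.6, 470.9 and 498.2 TPM in epidermal ILCs against 0 and 4.87, with 4354 against 9 counts. Rnf208, which encodes a RING finger protein, was at 263.6, 152.1 and 213.9 against 1.19 and 4.79 TPM. The log2 fold changes were 7.85 ± 0.86 for Tff1 and 6.10 ± 0.64 for Rnf208 (edgeR adjusted p of 0.000262 and 0.000205), and without dermal Sca1+ replicate 2 they were 13.34 and 7.25. Without dermal Sca1+ replicate 1 they were 6.72 and 5.43. Apol9b, of the apolipoprotein L family, had 4979 counts against 1, a ratio of 2572 (95% exact interval 461.3 to 101590, counting error only). Its near-identical neighbour Apol9a could share those reads. Without dermal Sca1+ replicate 2 the fitted log2 fold change of Apol9b moved from 11.02 to 13.53, and without replicate 1 to 9.96. Both dermal CCR6+ libraries held the 3 transcripts too, with Tff1 at 300.9 and 476.5 TPM.

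Krt83, which encodes a hair keratin and was on none of the marker lists, was at 202.5, 135.6 and 165.4 TPM against 15.03 and 20.40 (log2 fold change 3.19 ± 0.33, edgeR adjusted p = 0.000177). Keratins are similar in sequence and can share reads. The keratinocyte sum was higher in the epidermal libraries too (6167 to 22668 against 2445 and 2360 TPM). Krt83 was highest in epidermal replicate 1, which had the lowest epidermal keratinocyte sum. In the dermal CCR6+ libraries Krt83 was at 128.7 and 192 TPM, with keratinocyte sums of 2574 and 2225. The part of keratinocytes in the Krt83 difference was not tested. Among abundant transcripts, Myl12a, a regulatory light chain of myosin II, was at 2143 to 2552 TPM against 1015 and 937.2 (1.13 ± 0.18, edgeR adjusted p = 0.00224). Syngr2, a vesicle membrane protein gene, was at 687.9 to 831.0 against 287.3 and 307.6 TPM (1.26 ± 0.17, edgeR adjusted p = 0.00105). Both calls held without any 1 library.

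Ranked by p, the lower genes outside the lists of other cell types began with Klrg1, described with the type 2 genes, and Igsf5, which encodes a junctional adhesion protein. Igsf5 was at 4.60, 2.85 and 4.69 TPM against 124.5 and 134.8 (log2 fold change -5.28 ± 0.26, edgeR adjusted p = 5.53e-06). Hs3st1, a heparan sulphate sulphotransferase gene, was at 1.90 to 3.90 TPM against 123.5 and 124.7 (-5.50 ± 0.33, edgeR adjusted p = 1.04e-05). Serpinb1a, which encodes an inhibitor of neutrophil serine proteases, was at 64.51 to 87.21 against 662.2 and 672.7 TPM, and Gabpb1, a subunit of the GABP transcription factor, at 22.08 to 36.64 against 259.6 and 222.1 (edgeR adjusted p = 9.58e-06 for either). The call of each of the 4 held without any 1 library. In the dermal CCR6+ libraries, Hs3st1 was at 7.03 and 8.47 TPM and Serpinb1a at 158.7 and 144.7, nearer to the epidermal levels, while Gabpb1 at 189.3 and 191.4 was nearer to the dermal Sca1+ level. H2-D1, a class I histocompatibility gene, was among the abundant lower genes, at 3415, 1906 and 2633 TPM against 5022 and 5713 (-1.18 ± 0.20, edgeR adjusted p = 0.0032).

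The naming rule also took cornified envelope and desmosome genes of keratinocytes, which were higher in the epidermal libraries. Lor, the loricrin gene, was at 28.70, 139.1 and 183.5 TPM against 0.05 and 0.07, and Lce1m at 32.32, 251.8 and 344.2 against 0 and 0. Skint10, a skin immunoglobulin-like gene, was at 18.21 to 78.31 against 0.53 and 0.29 TPM, and Hal, the histidine ammonia-lyase of the cornified layer, at 29.86 to 103.7 against 0.88 and 0. In all 4 genes epidermal replicate 1, with the lowest keratinocyte sum, was the lowest epidermal library. Lor is itself on the keratinocyte list and so is part of that sum. The part of keratinocytes in the differences of these 4 genes was not tested. The calls of Kprp, Dsg1b and Krt23 were each lost without 1 or more libraries, Kprp without dermal Sca1+ replicate 2 (edgeR adjusted p = 0.0572), Dsg1b without replicate 1 (0.0718) and Krt23 without dermal Sca1+ replicate 2 or epidermal replicate 2 or 3 (0.0738 to 0.104). Cd52, a lymphocyte surface glycoprotein gene, was at 8167 to 8830 TPM against 3678 and 4058, and Jaml, an adhesion molecule of leukocytes at epithelia, was at 300.6 to 586.4 against 80.83 and 127.7. Lcp1, the leukocyte actin-bundling protein gene, was at 698.1 to 1357 against 489.4 and 439.8 TPM. The calls of these 3 were lost without either dermal Sca1+ library (edgeR adjusted p of 0.0675 to 0.177), and that of Cd52 also without epidermal replicate 2 or 3 (0.0502 to 0.0523).

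Genes nearly absent from the epidermal libraries included Lyz2, the lysozyme of macrophages, at 0.08, 0 and 0.24 TPM against 286.1 and 490.3. Fabp4, of adipocytes and capillary endothelium, was at 0, 0.13 and 0.30 against 313.8 and 312.8 TPM, and Cpa3, a mast cell protease gene, had 1 count against 3757. Aqp1, Col1a2, Jam2, Gatm, Rarres2, Serping1 and Sparcl1 each had at most 0.71 TPM in an epidermal library and at least 14.20 in a dermal Sca1+ library, and all 10 calls held without any 1 library. The fold changes of these genes rest on very few epidermal counts. Ubb, a ubiquitin gene, was at 2565 to 4453 against 5693 and 5703 TPM, and H2-K1, another class I gene, at 1611 to 2535 against 2990 and 3056. Their calls and that of the chaperone gene Hspa8 were lost without any 1 library except epidermal replicate 1 (edgeR adjusted p of 0.0569 to 0.179). Ldha, of glycolysis, was at 2002 to 2450 against 3827 and 4079 TPM, with the call lost without either dermal Sca1+ library (0.0631 and 0.0786).

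The gene of the sort marker was lower in epidermal ILCs. Ly6a (ENSMUSG00000075602.10, chromosome 15, 74994877 to 74998031, mm10) was at 394.1, 449.8 and 535.7 TPM against 2907 and 3064. All 3 epidermal libraries were below both dermal Sca1+ libraries (log2 fold change -2.77 ± 0.33, edgeR adjusted p = 0.000427), and the call held without any 1 library. Dermal CCR6+ libraries had Ly6a at 435.6 and 213.6 TPM. Ly6a has close paralogs that can share reads, and fibroblasts and endothelium, whose sums were higher in the dermal Sca1+ than in the epidermal or dermal CCR6+ libraries, are known to express it. Their part in the Ly6a difference was not tested. Ly6c1, a related gene of endothelium and lymphocytes, was at 5.62, 2.43 and 21.23 TPM against 503.1 and 638.0 (-5.93 ± 0.88, edgeR adjusted p = 0.00163, and -7.51 without epidermal replicate 3), and at 409.8 and 147.7 in the dermal CCR6+ libraries.

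Ccr6 (ENSMUSG00000040899.13, chromosome 17, 8236043 to 8257141, mm10), whose chemokine receptor recruits lymphocytes to epithelia, showed the reverse order without a call. It was at 1250, 1339 and 1111 TPM in epidermal ILCs and at 41.77 and 103.8 in dermal Sca1+ ILCs. The groups did not overlap, but the difference of 3.99 ± 1.52 had an edgeR adjusted p of 0.128.

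Of 25 type 2 ILC genes tested, 12 were called lower in epidermal than in dermal Sca1+ ILCs, 2 higher (Il17rb and Il9) and 11 neither, and the median log2 fold change was -1.30. The count of lower genes was 11 or 12 without any 1 library, and that of higher genes was 1 without epidermal replicate 3 or dermal Sca1+ replicate 2, and 0 without dermal Sca1+ replicate 1. Among the regulators, Gata3 (ENSMUSG00000015619.10, chromosome 2, 9857078 to 9890034, mm10) was at 270.9, 189.2 and 213.8 TPM against 848.5 and 827.7. The log2 fold change of Gata3 was -2.03 ± 0.20 (edgeR adjusted p = 0.000147). Rora, the gene of a nuclear receptor needed for type 2 ILCs, was at 405.5, 323.0 and 324.0 TPM against 1006 and 1276 (-1.70 ± 0.17, edgeR adjusted p = 0.000177). Pparg, a nuclear receptor of lipid metabolism, was at 1.06 to 2.85 TPM against 15.15 and 11.72 (-2.82 ± 0.38, edgeR adjusted p = 0.000853), and is an adipocyte marker too. Dermal CCR6+ libraries had Gata3 at 421.8 and 496.3 TPM, between the other groups, and Rora at 977.1 and 1104, at the dermal Sca1+ level.

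Among the surface receptors of type 2 ILCs, Klrg1 (ENSMUSG00000030114.8, chromosome 6, 122270596 to 122282882, mm10), an inhibitory lectin-like receptor, was nearly absent from the epidermal libraries. It was at 0.56, 0.90 and 0.58 TPM in epidermal ILCs and at 177.2 and 201.8 in dermal Sca1+ ILCs, a log2 fold change of -8.20 ± 0.36 (edgeR adjusted p = 2.79e-06). Il2ra, the IL-2 receptor α chain, was at 47.69, 31.66 and 30.38 TPM against 153.4 and 179.8 (-2.37 ± 0.19, edgeR adjusted p = 4.05e-05). Icos, a costimulatory receptor, was at 911.9, 582.6 and 647.4 against 1555 and 1668 TPM (-1.30 ± 0.20, edgeR adjusted p = 0.002). The dermal CCR6+ libraries had Klrg1 at 3.68 and 5.42 TPM and Il2ra at 38.85 and 35.94, near the epidermal levels, but Icos at 2071 and 2631, above both other groups. Il1rl1, the IL-33 receptor, was at 1.61, 0 and 0 TPM against 54.63 and 76.93 (-6.59 ± 1.10, edgeR adjusted p = 0.00323, and -13.73 without epidermal replicate 1). Il1rl1 is also on the mast cell list, since mast cells express it, and the part of mast cells in its difference was not tested. The dermal CCR6+ libraries had 0.94 and 0.07 TPM. Il17rb, the IL-25 receptor subunit, was called the other way at 122.0, 46.37 and 61.63 TPM against 12.07 and 27.38 (1.82 ± 0.43, edgeR adjusted p = 0.0201). Without dermal Sca1+ replicate 1 its adjusted p was 0.145, and without replicate 2 its log2 fold change was 2.48. Crlf2 and Il18r1, receptors of the alarmins TSLP and IL-18, were not called, at 18.85 to 32.77 against 34.96 and 29.59 TPM and at 87.24 to 127.6 against 86.96 and 90.00.

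Type 2 cytokine genes did not move together. Il5 (ENSMUSG00000036117.2, chromosome 11, 53720794 to 53725106, mm10), the eosinophil growth factor, was at 165.3, 58.07 and 76.33 TPM against 1481 and 1723. Its log2 fold change of -4.17 ± 0.31 (edgeR adjusted p = 3.18e-05) was called without any 1 library. Areg, an epidermal growth factor receptor ligand of tissue repair, was at 144.4, 51.94 and 43.03 against 837.7 and 714.5 TPM (-3.46 ± 0.38, edgeR adjusted p = 0.000247). Csf2, the gene of GM-CSF, was at 148.2, 107.1 and 130.5 TPM against 757.8 and 613.3 (-2.52 ± 0.34, edgeR adjusted p = 0.00092). In the dermal CCR6+ libraries, Il5 at 234.9 and 269.1 TPM, Areg at 299.3 and 294.2 and Csf2 at 125.5 and 49.03 were all below the dermal Sca1+ levels. Il13 was higher in every epidermal library, at 70.28, 56.06 and 49.11 against 29.15 and 17.26 TPM, but was not called (1.21 ± 0.35, edgeR adjusted p = 0.0534). Il9, another type 2 cytokine gene, had 292 counts in the epidermal and none in the dermal Sca1+ libraries, at least 50.3-fold higher. Its edgeR adjusted p was 0.0251, and it was 0.0556 without epidermal replicate 3 and 0.115 and 0.0992 without dermal Sca1+ replicate 1 and 2. Il4 was not called (8.47 to 25.89 against 34.86 and 24.14 TPM). Arg1, an arginine-degrading enzyme of type 2 ILCs, was at 21.40 to 23.56 against 63.89 and 89.01 TPM (-1.88 ± 0.21, edgeR adjusted p = 0.000265).

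**Figure D3:**
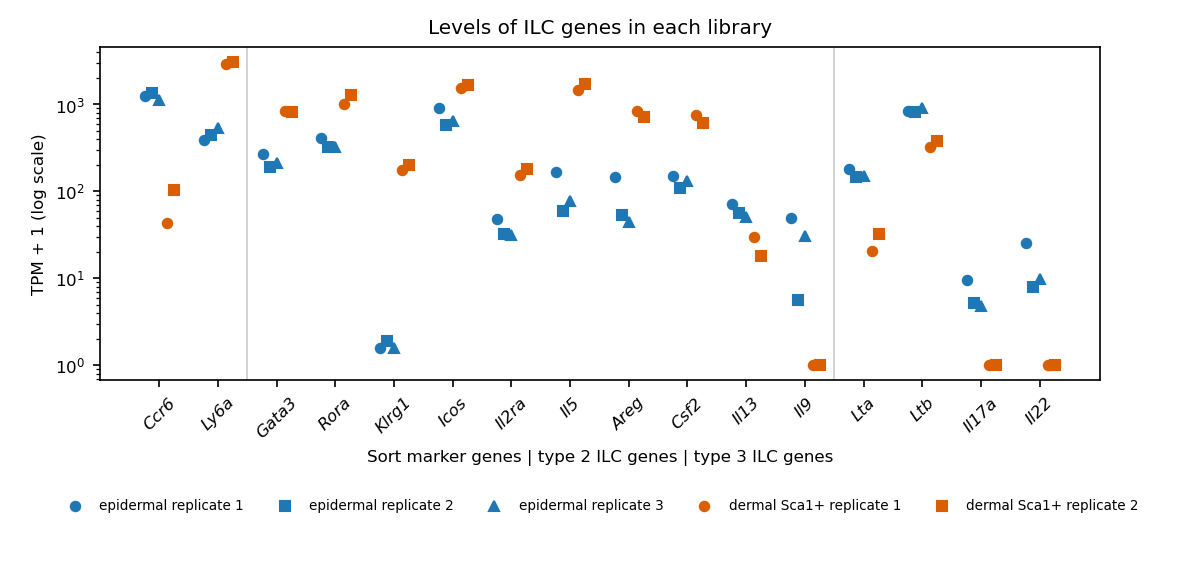
TPM + 1 (log scale) of 16 sort marker, type 2 and type 3 genes in the 3 epidermal and 2 dermal Sca1+ libraries; each point is 1 library. The genes were picked after their values were seen, and Ccr6, Il13, Il17a and Il22 were not called. The groups do not overlap in any gene drawn, where 40.9% of all genes tested showed no overlap. Klrg1 was at 0.56 to 0.90 against 177.2 and 201.8 TPM and Lta at 144.7 to 179.2 against 19.52 and 31.30.

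The bases before the start sites of both lower type 2 genes that held the letters AGATAA, the core bound by GATA factors, are printed here. The letters were searched on both strands in the 250 bases before each RefSeq start (GRCm38.p6). Of the 20 type 2 genes with an entry, 4 held a match (20%), against 11.4% of 27025 genes with an entry. They were Il1rl1 and Csf2, 2 of the 9 that were called lower, and Il9r and Il13, which were not called. Il1rl1 has 2 listed starts. Bases are written in the direction of the gene, AGATAA or its reverse complement is in capitals, and the windows lie at chr11:54249900-54250149 on the minus strand for Csf2 and at chr1:40429320-40429569 and chr1:40439379-40439628 on the plus strand for Il1rl1. A match is a description of letters and not a measured binding site.
Csf2: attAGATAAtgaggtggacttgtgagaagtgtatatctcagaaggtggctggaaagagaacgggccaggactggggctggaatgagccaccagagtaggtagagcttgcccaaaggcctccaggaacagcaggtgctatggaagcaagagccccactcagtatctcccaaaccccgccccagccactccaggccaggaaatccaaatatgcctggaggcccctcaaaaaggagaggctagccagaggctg
Il1rl1, first start: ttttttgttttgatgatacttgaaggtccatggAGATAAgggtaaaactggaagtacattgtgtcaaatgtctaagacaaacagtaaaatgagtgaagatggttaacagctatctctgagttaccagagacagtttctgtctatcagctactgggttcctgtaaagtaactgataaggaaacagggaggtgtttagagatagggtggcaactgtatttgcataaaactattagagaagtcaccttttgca
Il1rl1, second start: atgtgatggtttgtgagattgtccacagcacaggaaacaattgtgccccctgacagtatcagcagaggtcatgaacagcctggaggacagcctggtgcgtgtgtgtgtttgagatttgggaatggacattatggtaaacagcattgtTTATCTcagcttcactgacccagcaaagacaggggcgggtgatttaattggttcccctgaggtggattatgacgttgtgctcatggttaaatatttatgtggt

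Of 21 type 3 ILC genes tested, 4 were called higher in epidermal ILCs (among them Maf, Lta and Ltb) and 1 lower (Tnfsf11), with a median log2 fold change of 0.52, or 0.40 with genes without counts in a group set to their bound. Lta and Ltb encode the lymphotoxin chains. Lta was at 179.2, 144.7 and 148.9 TPM against 19.52 and 31.30 (2.54 ± 0.69, edgeR adjusted p = 0.0387), and Ltb was at 845.7, 825.3 and 913.6 against 326.9 and 378.0 TPM (1.19 ± 0.29, edgeR adjusted p = 0.0242). Maf, a transcription factor of IL-17 and IL-22 producing lymphocytes, was at 58.96 to 62.24 TPM against 23.36 and 28.00 (1.03 ± 0.29, edgeR adjusted p = 0.0478). Every epidermal library was above both dermal Sca1+ libraries in Maf, Lta and Ltb, yet these 3 calls were lost without either dermal Sca1+ library (edgeR adjusted p of 0.111 to 0.249). They were also lost without epidermal replicate 2 or 3 (adjusted p of 0.0633 to 0.127), and without replicate 1 the call of Lta was lost (adjusted p = 0.0599).

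The effector cytokines of type 3 ILCs were low in both groups. Il22 was at 24.54, 6.98 and 8.88 TPM and Il17a at 8.66, 4.14 and 3.79 in epidermal ILCs, and both had no count in the dermal Sca1+ libraries. The counts of 452 and 200 against 0 make them at least 77.8-fold and 34.4-fold higher, but neither was called (edgeR adjusted p of 0.0816 and 0.0854). Il17f, at 39.40, 5.68 and 10.48 against 1.61 and 2.11 TPM, was not called either. Dermal CCR6+ ILCs had Il17a at 19.88 and 22.07 TPM and Il17f at 50.25 and 55.70, above every epidermal value, and Il22 at 11.79 and 14.20, below epidermal replicate 1 and above the other epidermal libraries. Tnfsf11, the RANK ligand gene, was at 11.95 to 22.79 against 37.87 and 47.21 TPM (edgeR adjusted p = 0.00173). Among 19 tested type 1 ILC and NK cell genes, only Ccl4 was called (55 counts in dermal Sca1+ and none in epidermal libraries), and 2 genes were called lower without epidermal replicate 3. Gzmc, Xcl1 and Tbx21 were at 106.9, 95.84 and 13.94 TPM in dermal Sca1+ replicate 1 and at 2.11, 11.58 and 2.02 in replicate 2, so the dermal group did not hold 1 level.

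The ILC lineage transcription factors differed in both directions, with 5 higher and 10 lower of 31 tested and a median of -0.49. Leaving out 1 library left 1 to 3 higher genes (1 without either dermal Sca1+ library and 3 without any 1 epidermal library) and 7 to 10 lower ones. Tcf7, the gene of TCF-1, was at 283.3, 127.4 and 196.5 TPM against 52.04 and 69.37 (log2 fold change 1.60 ± 0.37, edgeR adjusted p = 0.019, and 0.137 and 0.0669 without dermal Sca1+ replicate 1 and 2). Ikzf3, which encodes the zinc finger factor Aiolos, was at 308.9, 173.9 and 232.9 against 639.7 and 583.3 TPM (-1.51 ± 0.18, edgeR adjusted p = 0.000524). Satb1, a chromatin organiser of lymphocytes, was at 2.63, 6.28 and 6.77 TPM against 68.91 and 74.66 (-3.88 ± 0.54, edgeR adjusted p = 0.00106), and Zeb2 at 1.78 to 2.81 against 8.05 and 9.72 (-2.72 ± 0.43, edgeR adjusted p = 0.0025). The last 3 calls held without any 1 library. Zeb2 is expressed in macrophages and fibroblasts too. Tox, Nfil3, Bhlhe40, Runx1 and Runx3 were not called.

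Cytokine receptor genes leaned lower, with 13 lower and 3 higher of 36 tested and a median of -0.59. The lower count was 10 to 12 without 1 library, and the higher count was 1 and 2 without dermal Sca1+ replicate 1 and 2. All 4 subunits of the interferon receptors tested were lower. Ifngr1, the ligand-binding chain for interferon-γ, was at 154.7, 109.7 and 164.8 TPM against 728.3 and 779.5, and Ifngr2 was at 37.47, 25.97 and 25.05 against 102.8 and 99.05. The log2 fold changes were -2.53 ± 0.23 and -2.02 ± 0.19 (edgeR adjusted p = 9.87e-05 for either). Ifnar1, a chain of the type I interferon receptor, was at 28.38 to 52.21 against 220.3 and 233.4 TPM (-2.73 ± 0.28, edgeR adjusted p = 0.000185), and Ifnar2 was at 32.41 to 73.56 against 154.6 and 134.8 (-1.70 ± 0.30, edgeR adjusted p = 0.00428). These 4 calls held without any 1 library.

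Other receptors called lower included those of IL-4, IL-10 and the common γ chain cytokines. Il4ra, shared by the IL-4 and IL-13 receptors, was at 35.02, 11.11 and 17.07 TPM against 230.2 and 211.2 (-3.59 ± 0.38, edgeR adjusted p = 0.0002). Il10ra was at 61.12, 13.61 and 21.31 against 248.2 and 205.4 TPM (-3.04 ± 0.45, edgeR adjusted p = 0.00153, and -3.69 without epidermal replicate 1). Il2rg, the common γ chain, was at 1435 to 2025 against 3416 and 3301 TPM (-1.05 ± 0.19, edgeR adjusted p = 0.00555, and 0.0522 without dermal Sca1+ replicate 1). Il6st and Lifr, also expressed by fibroblasts and endothelium, were at 2.75 to 4.27 against 34.48 and 51.59 TPM and at 0.33 to 1.36 against 4.92 and 5.91. The call of Lifr (edgeR adjusted p = 0.0239) was lost without any 1 of 4 libraries, all but epidermal replicate 3, with adjusted p of 0.052 to 0.0962. In the dermal CCR6+ libraries Ifngr1 was at 493.0 and 644.4 TPM, Ifnar1 at 161.9 and 159.7 and Il4ra at 145.5 and 138.6, nearer to the dermal Sca1+ than to the epidermal levels.

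Il1r2, the decoy receptor for IL-1, was 1 of the 3 receptors called higher. It was at 478.0, 319.5 and 373.8 TPM in epidermal ILCs against 26.75 and 58.86 (3.13 ± 0.40, edgeR adjusted p = 0.000648), with log2 fold changes of 2.66 and 3.84 without dermal Sca1+ replicate 1 and 2. Tgfbr1, a TGF-β receptor kinase, was at 72.77, 31.49 and 46.86 against 9.93 and 9.88 TPM (2.11 ± 0.44, edgeR adjusted p = 0.0107, and 0.0717 and 0.0688 without either dermal Sca1+ library). Il7r, Il18r1 and Il9r were not called.

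Genes of the NF-κB pathway, which carries signals from TNF, IL-1 and IL-33 receptors to the nucleus, were lower in epidermal ILCs in 12 of 20 cases and higher in 2, with a median of -1.22. The lower count was 10, 8 and 8 without epidermal replicate 1, 2 and 3, and 4 and 8 without dermal Sca1+ replicate 1 and 2. Among the subunits, Rel (ENSMUSG00000020275.9, chromosome 11, 23736847 to 23770970, mm10) was at 30.77, 19.87 and 12.48 TPM against 97.52 and 86.60 (log2 fold change -2.28 ± 0.31, edgeR adjusted p = 0.000927). Rela was at 75.35 to 118.3 against 261.8 and 188.4 TPM (-1.36 ± 0.25, edgeR adjusted p = 0.00601, and 0.0721 without dermal Sca1+ replicate 1), and Relb and Nfkb2 were not called. Among the inhibitors, Nfkbie was at 26.16, 11.75 and 14.55 against 184.3 and 130.5 TPM (-3.33 ± 0.30, edgeR adjusted p = 8.69e-05). Nfkbia (ENSMUSG00000021025.7, chromosome 12, 55489410 to 55492647, mm10) was at 2320, 1004 and 834.7 TPM against 2937 and 3370 (-1.35 ± 0.31, edgeR adjusted p = 0.0174). Its call was lost without epidermal replicate 2 (adjusted p = 0.0591) and without dermal Sca1+ replicate 1 (0.0669) or 2 (0.0878). Traf1, a signalling adaptor, was at 103.9 to 138.7 against 806.2 and 582.6 TPM (-2.66 ± 0.24, edgeR adjusted p = 8.21e-05), and Birc3, an apoptosis inhibitor, at 41.02 to 67.86 against 200.6 and 172.5 (-2.04 ± 0.27, edgeR adjusted p = 0.000734). The calls of Rel, Nfkbie, Traf1 and Birc3 held without any 1 library. Bcl2a1d, an anti-apoptotic gene with near-identical copies that can share reads, was at 623.3 to 784.0 against 287.1 and 240.6 TPM (1.28 ± 0.26, edgeR adjusted p = 0.00904, and 0.079 without dermal Sca1+ replicate 2). The higher count was 0 without that library and 1 without any other.

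Epidermal replicate 1 stood apart from the other epidermal libraries in this list, with a summed level of 7188 TPM against 3342 and 3373, where the dermal Sca1+ libraries had 7593 and 7291. Tnfaip3, a feedback inhibitor, was at 1359 TPM in that library, 205.4 and 212.5 in the other epidermal libraries and 847.8 and 797.2 in dermal Sca1+ ILCs, and was not called. Rel, Nfkbie and Traf1 in epidermal replicate 1 were still below both dermal Sca1+ libraries. By the numbers that open the deposited names, epidermal replicate 1 shares a run with neither dermal Sca1+ library. Epidermal replicate 2 shares 1 with dermal Sca1+ replicate 1, and epidermal replicate 3 with dermal Sca1+ replicate 2. The labels do not say what these runs stand for, and their part was not tested.

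**Figure D4:**
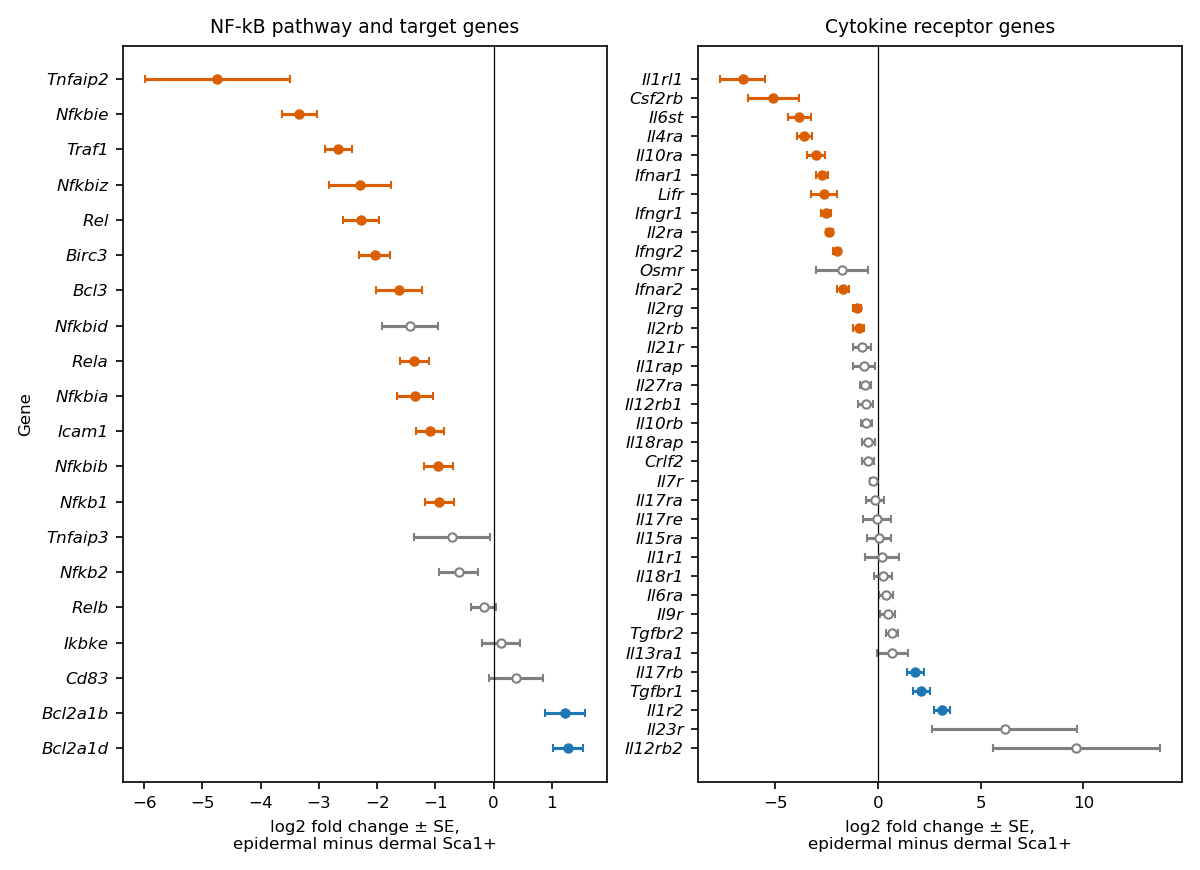
Log2 fold change ± SE (epidermal minus dermal Sca1+, edgeR) of the 20 NF-κB genes and 36 cytokine receptor genes tested; filled orange points were called lower, filled blue points higher, and open grey points were not called. The 4 interferon receptor genes lie between -2.73 and -1.70.

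The bases before the starts of Rel and Nfkbia are shown because each held a κB motif, the sequence bound by NF-κB. The letters searched were GGG and TTTCC with any 2 bases between them, on both strands of the 250 bases before the RefSeq start (GRCm38.p6). Of 16 NF-κB list genes with an entry, 4 held a match (25%), among them 2 of the 10 called lower, and 1.65% of 27025 genes did. The match is in capitals, as the reverse complement in either case, and starts 29 bases before the Nfkbia start and 91 bases before the Rel start. The windows are chr12:55492648-55492897 and chr11:23770970-23771219, both on the minus strand.
Nfkbia: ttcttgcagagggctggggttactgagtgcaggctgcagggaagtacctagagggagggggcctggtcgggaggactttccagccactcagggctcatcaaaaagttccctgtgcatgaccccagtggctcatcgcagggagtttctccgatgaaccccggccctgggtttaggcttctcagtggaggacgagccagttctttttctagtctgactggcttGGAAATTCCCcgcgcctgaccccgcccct
Rel: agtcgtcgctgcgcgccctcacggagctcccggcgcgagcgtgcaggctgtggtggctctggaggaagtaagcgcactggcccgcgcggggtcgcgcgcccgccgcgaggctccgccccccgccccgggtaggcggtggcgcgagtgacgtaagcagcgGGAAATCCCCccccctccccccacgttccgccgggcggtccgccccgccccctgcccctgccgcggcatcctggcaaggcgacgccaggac

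Immediate early and heat shock genes, which are induced within minutes of stimulation or tissue handling, were lower in 12 of 26 cases and higher in none, with a median of -0.88. Without epidermal replicate 1 the count was 17, and without dermal Sca1+ replicate 1 it was 7. The summed level was 12660 TPM in epidermal replicate 1, 6381 and 6831 in the other epidermal libraries and 14066 and 13639 in the dermal Sca1+ libraries. Nr4a2, an orphan nuclear receptor gene, was at 4.35, 12.32 and 3.30 TPM against 113.1 and 147.0 (log2 fold change -5.23 ± 0.28, edgeR adjusted p = 8.17e-06). Atf3 was at 63.48 to 161.6 TPM against 503.1 and 605.8 (-2.58 ± 0.29, edgeR adjusted p = 0.000312), and Ier3 at 4.70 to 7.58 against 218.5 and 151.6 (-5.09 ± 0.45, edgeR adjusted p = 8.1e-05). These 3 calls held without any 1 library. Fos was not called (1013 to 2232 against 1445 and 1673 TPM), nor were Junb and Nr4a1, whose highest epidermal values were in replicate 1.

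Feedback regulators of kinase and cytokine signalling were lower in 6 of 18 cases and higher in none. The 6 were Socs2, Socs3, Dusp5, Dusp10, Spry2 and Pim1, and between 6 and 7 genes were called without any 1 library. Epidermal replicate 1 stood apart here too, with a summed level of 3211 TPM against 1836 and 1935 in the other epidermal and 4443 and 3805 in the dermal Sca1+ libraries. Socs2, an inhibitor of cytokine and growth hormone signalling, was at 8.32 to 13.41 TPM against 165.2 and 174.5 (log2 fold change -3.91 ± 0.27, edgeR adjusted p = 2.09e-05). Socs3, which limits IL-6 and STAT3 signalling, was at 9.01 to 12.29 against 97.42 and 76.96 TPM (-3.13 ± 0.33, edgeR adjusted p = 0.000223). Of 30 interferon response genes, 7 were called lower and none higher, and the lower count was 3 and 4 without dermal Sca1+ replicate 1 and 2. Isg15, a ubiquitin-like protein gene, was at 24.59, 11.43 and 12.51 TPM against 160.0 and 157.0 (-3.42 ± 0.31, edgeR adjusted p = 9.05e-05).

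Receptors for neuropeptides, by which nerves act on ILCs, were called in 7 of 14 cases, 2 higher and 5 lower, with a median of -2.24. The 3 Ramp genes encode partner chains that set the ligand of the receptor CALCRL: with RAMP1 it binds CGRP, and with RAMP2 or RAMP3 it binds adrenomedullin. Ramp1 was at 292.0, 328.5 and 332.5 TPM in epidermal ILCs against 67.91 and 92.08 (log2 fold change 1.87 ± 0.33, edgeR adjusted p = 0.00482, and 0.0534 without dermal Sca1+ replicate 1). Ramp3 was at 7.71, 7.57 and 3.54 TPM against 590.3 and 574.8 (-6.67 ± 0.34, edgeR adjusted p = 5.66e-06). Ramp2, a gene of endothelium, was at 1.05 to 2.34 against 63.41 and 52.72 TPM (-5.03 ± 0.60, edgeR adjusted p = 0.000427). Calcrl itself was at 10.08 to 16.11 against 52.66 and 57.02 TPM (-2.23 ± 0.30, edgeR adjusted p = 0.00091). Calca, the CGRP gene, was at 31.34, 21.71 and 24.06 against 124.7 and 128.4 TPM (-2.32 ± 0.32, edgeR adjusted p = 0.00104). Endothelium is known to express Calcrl, Ramp2 and Ramp3. In the dermal CCR6+ libraries, with endothelial sums of 314.7 and 144.2 TPM, Ramp3 was at 333.0 and 344.2 and Ramp2 at 56.57 and 35.59.

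Vipr2, a receptor for vasoactive intestinal peptide, had 1997 counts in the epidermal libraries (22.79, 15.49 and 12.37 TPM) and none in the dermal Sca1+ libraries. It was at least 343.8-fold higher (edgeR adjusted p = 0.000144), and the call held without any 1 library. The dermal CCR6+ libraries had 8.28 and 19.47 TPM. Nmur1, the neuromedin U receptor of type 2 ILCs, was at 0.23 to 3.93 against 6.37 and 12.36 TPM and was not called.

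Among 19 chemokine receptors tested, 2 were called higher and 4 lower. Cx3cr1, the fractalkine receptor, was at 96.68, 68.54 and 69.49 TPM against 0.44 and 3.33 (log2 fold change 5.19 ± 1.05, edgeR adjusted p = 0.00967), and without dermal Sca1+ replicate 2 the log2 fold change was 7.38. Macrophages and Langerhans cells can express Cx3cr1. The macrophage and dendritic cell sum was 5.59 to 11.65 TPM in epidermal libraries against 652.3 and 1139, and the Langerhans cell sum was 946.6, 675.9 and 916.9 against 2027 and 4455. Of the 10 Langerhans cell markers tested, 5 were called lower (Cd74, H2-Aa, H2-Ab1, H2-Eb1 and Mfge8). The other 5, Cd207 among them, were not called. The part of macrophages and Langerhans cells in the Cx3cr1 difference was not tested. Ccr9, a gut-homing receptor, had 93 counts against 0 (at least 16.0-fold higher, edgeR adjusted p = 0.0227, and 0.0991 and 0.0825 without dermal Sca1+ replicate 1 and 2). Ccr2, which guides cells to inflamed tissue and also marks monocytes, was at 8.48, 0.47 and 8.64 TPM against 98.45 and 164.1 (-4.65 ± 0.76, edgeR adjusted p = 0.00291). Ccr8, a receptor of skin lymphocytes, was at 1400 to 1592 against 2514 and 2541 TPM (-0.83 ± 0.18, edgeR adjusted p = 0.0139, and 0.0971 and 0.088 without dermal Sca1+ replicate 1 and 2). The lower count was 2 without either dermal Sca1+ library. Cxcr6 was at 1575 to 2309 against 1750 and 1766 TPM and was not called.

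Genes of tissue retention and egress were called lower in 8 of 28 cases and higher in 2, with a median of -0.80. S1pr1, the receptor by which lymphocytes leave tissues, was at 3.24, 1.53 and 3.69 TPM against 63.99 and 66.51 (log2 fold change -4.66 ± 0.45, edgeR adjusted p = 0.000125). Klf2, the transcription factor that drives S1pr1, was at 8.52 to 11.24 against 67.31 and 53.64 TPM (-2.68 ± 0.25, edgeR adjusted p = 9.87e-05). Both genes are strong in endothelium. Itga4, the integrin α4 chain, was at 1.5, 1.3 and 0.66 TPM against 45.11 and 35.47 (-5.58 ± 0.44, edgeR adjusted p = 4.05e-05), and at 3.16 and 1.64 in the dermal CCR6+ libraries. Gpr183, the oxysterol receptor EBI2, was at 70.05 to 82.45 against 215.7 and 186.7 TPM (-1.54 ± 0.17, edgeR adjusted p = 0.000287). These 4 calls held without any 1 library, while the count of 8 became 5 without either dermal Sca1+ library.

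Higher in epidermal ILCs were Cdh1, the E-cadherin gene of epithelial cells and some epidermal leukocytes, and Rgs1, which dampens chemokine signalling. Cdh1 was at 63.79, 35.51 and 41.62 TPM against 11.65 and 15.06 (log2 fold change 1.68 ± 0.38, edgeR adjusted p = 0.0181). It was highest in epidermal replicate 1, which had the lowest epidermal keratinocyte sum. The part of the keratinocyte markers, which were higher in the epidermal libraries, was not tested. Rgs1 was at 3766, 1187 and 1306 TPM against 392.9 and 435.0 (2.11 ± 0.44, edgeR adjusted p = 0.0111). Both calls were lost without either dermal Sca1+ library (adjusted p of 0.0719 to 0.129). Itgae, the αE chain that binds E-cadherin, was at 1151, 288.4 and 367.0 TPM against 92.01 and 93.80 and was not called (2.49 ± 1.24, edgeR adjusted p = 0.238). Cd69 was not called either (303.0 to 650.2 against 569.5 and 502.9 TPM).

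Members of the TNF and immunoglobulin families differed gene by gene. Among the TNF ligands, with 4 higher and 2 lower of 17 tested, Cd70 was at 126.0, 128.9 and 117.2 TPM against 16.99 and 10.62 (log2 fold change 3.07 ± 0.49, edgeR adjusted p = 0.00263). Its receptor gene Cd27 showed the opposite order, at 91.15 to 117.1 against 276.3 and 292.0 TPM (-1.28 ± 0.22, edgeR adjusted p = 0.00348). The higher count of TNF ligands was 1 without dermal Sca1+ replicate 2 and 2 without replicate 1 or without epidermal replicate 2 or 3, since Lta, Ltb and Tnfsf10 were lost in some of these fits, while the call of Cd70 held in all 5. The lower count was 1 without epidermal replicate 2 or 3 or dermal Sca1+ replicate 1, and 3 without dermal Sca1+ replicate 2. Tnfrsf8, the CD30 gene, was at 13.78, 8.94 and 14.22 TPM against 0.02 and 0.28 (6.38 ± 0.91, edgeR adjusted p = 0.00278, with log2 fold changes of 5.45 and 8.75 without dermal Sca1+ replicate 1 and 2). Tnfrsf18, the GITR gene, was at 335.0 to 414.2 against 1177 and 1258 TPM (-1.83 ± 0.21, edgeR adjusted p = 0.000297), and Tnfrsf9, the 4-1BB gene, at 11.01 to 15.91 against 103.2 and 81.44 (-2.87 ± 0.25, edgeR adjusted p = 6.98e-05).

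Of 22 costimulatory and inhibitory receptors, 6 were called lower and 2 higher. Cd28, the costimulator of T cells, was at 4.60, 2.63 and 3.55 TPM against 88.26 and 69.09 (log2 fold change -4.63 ± 0.29, edgeR adjusted p = 1.36e-05). Pdcd1, the PD-1 gene, was at 21.75, 3.65 and 11.33 against 89.84 and 94.95 TPM (-3.10 ± 0.45, edgeR adjusted p = 0.00142), and Cd200r1, an inhibitory receptor, at 6.99 to 12.88 against 109.6 and 105.0 (-3.45 ± 0.25, edgeR adjusted p = 2.2e-05). These calls held without any 1 library. Cd96 and Cd226, which share the ligand CD155, were at 162.4 to 267.5 against 90.91 and 83.23 TPM and at 27.97 to 74.19 against 13.80 and 20.07. Both calls (edgeR adjusted p of 0.0306 and 0.0351) were lost without epidermal replicate 1 or 3 or either dermal Sca1+ library, with adjusted p of 0.0514 to 0.22. Ubash3a, a phosphatase-like regulator of T cell receptor signalling, was at 79.93, 53.80 and 66.92 TPM against 8.71 and 3.09 (3.59 ± 0.36, edgeR adjusted p = 0.000145), with log2 fold changes of 4.31 and 3.16 without dermal Sca1+ replicate 1 and 2. In either direction, 12.5% of the 24 T cell list genes tested were called, against 11.4% of all genes tested (2.75% higher). Ubash3a was 1 of 3 called higher, beside Lck and Themis, and none of the 24 was called lower. Without epidermal replicate 3 or either dermal Sca1+ library it was the 1 call left, and Lck was lost without epidermal replicate 2 too (adjusted p = 0.0544).

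**Figure D5:**
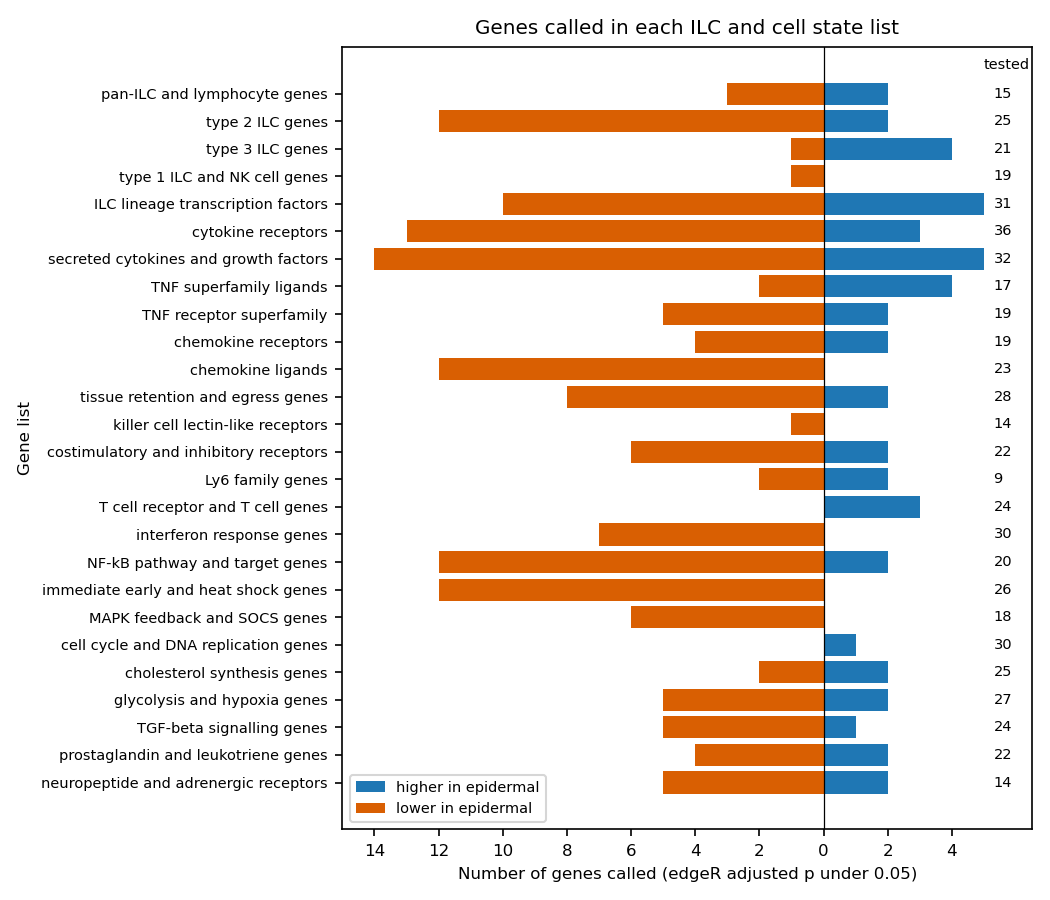
Number of genes called higher (right) and lower (left) in epidermal ILCs in each of 26 lists of ILC and cell state genes, with the number tested at the right edge. Type 2 genes had 12 lower and 2 higher calls, type 3 genes 4 higher and 1 lower, and NF-κB genes 12 lower and 2 higher.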

How the data were processed

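RNA was measured in 10 libraries of sorted mouse skin ILCs, of which 5 belong to this comparison. RNA was isolated with a column kit and libraries were prepared by a SMART-Seq type kit for low input and Nextera XT, per the labels' protocols. This chemistry does not mark strand, so reads of antisense or overlapping genes cannot be told apart. Trimmomatic, STAR, RSEM and the mm10 build are named, per the submitters' processing notes, with versions and settings not given in the sources used here. The deposited expected counts are RSEM's estimates per gene, in which ambiguous reads are split, per the file headers (7.2% to 8.32% of values not whole). The deposited TPM values are length-corrected abundances, per the file headers. The FPKM columns were not used.

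Samples were grouped by title. In its cell type label, dermal Sca1+ replicate 2 carries no marker, and the series' design text speaks of triplicates, while 2 dermal Sca1+ libraries were analysed here. Replicates differed by more than sampling noise (chi-square over its degrees of freedom, 44.8 or more), so each was counted. Of 47643 gene IDs, 47224 matched GENCODE M21 (GRCm38).

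Expected counts were rounded to whole numbers and fitted with edgeR 4.0.16 (filterByExpr with a count minimum of 10, TMM, glmQLFit and glmQLFTest, two-sided, Benjamini-Hochberg adjustment over all 16208 genes) with 4 groups and all 10 libraries, which share 1 estimate of the spread (biological coefficient of variation 0.62). The SE is the absolute log2 fold change over the square root of F. The script was tested on simulated counts. Lists were counted, with no set test. Fold bounds use a floor of 3 counts over the group, and intervals cover counting error only.

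Named genes were called, did not overlap between groups and averaged 20 CPM or more in the group with the higher level. Per direction, the rule took the 8 with the largest fold change, the 3 most abundant with at most 3 counts in the lower group, and, off the lists of other cell types, the 8 with the smallest p and the 8 most abundant. Predicted, mitochondrial, ribosomal, haemoglobin and antigen receptor genes were left out. Called members of the ILC and state lists were also eligible, and examples were picked after their values were seen. The libraries compared and the gene lists were chosen with earlier results of these data known.

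Alternatives were RLE size factors, DESeq2 1.42.0, limma-trend 3.58.1 on log2(TPM + 1), other filters (no filter beyond 1 count, 5 CPM in 2 libraries), the 5 libraries alone, robust dispersions, a minimum change of 1 on the log2 scale, replicate blocks and leaving out each library. Promoter bases are RefSeq's (GRCm38.p6). Results for some genes are not reported here, and they remain in the counts of genes called.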

Additional observations from a re-analysis of the deposited data

How the results depend on the processing

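With 2 and 3 libraries a group, and 1 left on leaving out a dermal Sca1+ library (then assumed to vary like the other groups), many calls rest on few libraries. Of 282 listed or named genes called, 175 were called without any 1 of the 5 libraries and 169 in all alternatives, and no named gene reversed. The 1848 calls became 3230 with DESeq2 and 2918 without a filter, and 1192 to 1768 without 1 library. Higher calls (445) became 1157 with DESeq2, 946 with limma on TPM, 846 without a filter, 252 with a replicate block by title number, and 243 to 459 without 1 library. Lower calls (1403) were 931 to 1309 without 1 library. Among ILC and state genes, the 40 called higher became 65 without a filter and 10 to 33 without 1 library, and the 131 lower remained within 1.5 times. The 13 genes of other cell types called higher became 22 without a filter and 5 to 15 without 1 library. Correlations of deviations from the group means were 0.027 and 0.016 by title number, and -0.016 and 0.01 by name run. The deviations of the 2 dermal Sca1+ libraries mirror each other, so these values are not independent and cannot decide on pairing. A block by title number gave 1273 calls, and a block by name run, read from numbers that open the deposited names, gave 1774. The cause of these changes was not tested. A count of 0 allows up to 3 counts, 0.166 to 0.258 CPM in a library.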

Other observations

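Chemokine ligand genes, most of which are made by stromal and myeloid cells as well as by lymphocytes, were called lower in epidermal ILCs in 12 of 23 cases and higher in none, with a median log2 fold change of -3.02. Cxcl2, a neutrophil attractant, was at 56.74, 17.53 and 15.10 TPM against 217.7 and 224.6 (-3.02 ± 0.38, edgeR adjusted p = 0.000568), and Cxcl12, a typical fibroblast product, was at 0.54 to 1.13 against 24.33 and 40.03 TPM. Ccl9 and Ccl11 had no count in the epidermal libraries, at least 371.8-fold and 180.7-fold lower. Ccl27a, a keratinocyte chemokine, was at 276.3, 713.6 and 687.1 TPM against 323.3 and 190.3 and was not called. The summed level of the list was 554.5, 967.4 and 888 TPM against 1575 and 1944, and 927.8 and 553.4 in the dermal CCR6+ libraries. Fibroblast sums, which include Gsn (not called), were 261.4 to 413.8 against 1748 and 2663 TPM. They were 1619 and 981.3 in the dermal CCR6+ libraries. The part of other cells in the list was not tested.

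Prostaglandin and leukotriene genes were split, with 2 higher and 4 lower of 22 tested, and 1 higher without any 1 library other than epidermal replicate 1. Ptger4, the prostaglandin E2 receptor EP4, was at 216.7, 101.9 and 118.6 TPM against 39.76 and 36.73 (log2 fold change 1.77 ± 0.30, edgeR adjusted p = 0.00373), a call that held without any 1 library. Ltb4r1, the leukotriene B4 receptor, was at 64.72 to 74.68 against 179.3 and 156.5 TPM (-1.39 ± 0.24, edgeR adjusted p = 0.00385). Alox5, the first enzyme of leukotriene synthesis and a mast cell and macrophage gene, was at 0, 0 and 0.09 against 7.01 and 14.98 TPM.

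Cell cycle genes gave 1 call of 30 (Mcm3, higher, edgeR adjusted p = 0.0449, lost without any 1 of the 5 libraries at 0.0638 to 0.194), and their median was 0.80. The number of higher calls was 3 without dermal Sca1+ replicate 1, 1 without epidermal replicate 3 and 0 without any other library. Cholesterol synthesis genes gave 2 calls in each direction of 25 (16%), and glycolysis and hypoxia genes 2 higher and 5 lower of 27 (25.9%). Of all genes tested, 11.4% were called. Without epidermal replicate 1 the higher cholesterol genes numbered 4, and without any other library 0, while the lower ones numbered 1 without epidermal replicate 2 or either dermal Sca1+ library. The glycolysis genes numbered 0 higher without either dermal Sca1+ library and 1 without epidermal replicate 3, and those lower were 1 without dermal Sca1+ replicate 1 and 3 without epidermal replicate 2 or 3 or dermal Sca1+ replicate 2. In the latter, Ndrg1, a hypoxia and stress gene, was at 10.59 to 24.76 TPM against 105.1 and 134.9 (-2.90 ± 0.31, edgeR adjusted p = 0.000219). Secreted cytokines and growth factors were called lower in 14 of 32 cases and higher in 5, and Lif, of the IL-6 family, was at 1.40 to 2.34 against 14.88 and 23.27 TPM (-3.53 ± 0.32, edgeR adjusted p = 8.48e-05). The higher count was 3, 2 and 1 without epidermal replicate 1, 2 and 3 and 0 without either dermal Sca1+ library, and the lower count was 9 without dermal Sca1+ replicate 2.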
